A study of Mus musculus with 2 samples.

Results

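The 42 genes described here encode the vacuolar ATPase (V-ATPase) and other proteins of the lysosome, and they were read in 2 laser-captured pools of 30 mouse Purkinje cells each. They were chosen by symbol, with earlier results of these data known, and all 42 were found among the 43346 gene identifiers of the tables. Both pools came from male B6CASTF1/J mice aged 14 months, a first-generation cross of C57BL/6 and CAST, and total RNA of a size above 200 was turned into complementary DNA with a SMARTer Ultra Low kit, with spike-in RNA added. The labels call the assay single-cell RNA-seq, although each library is a pool. The pools are replicates of a single untreated group with the same donor identifier, and the labels do not say whether they came from 1 animal, so the standard deviation (SD, n = 2) and every difference below describe these libraries and may be technical. The tables held 31503819 expected counts (estimated reads) for pool 1 and 28709397 for pool 2, and levels are given as TPM, an abundance corrected for transcript length and scaled to a fixed total per library. The reference was the C57BL/6 genome (mm10), and mapping of reads from the CAST allele was not tested.

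Lysosomes are acidic compartments in which proteins, lipids, glycans and nucleic acids are broken down. The V-ATPase keeps them acidic: its soluble V1 sector splits ATP and turns a rotor that carries protons through the membrane-bound V0 sector. In neurons the same pump also acidifies synaptic vesicles, and inherited loss of lysosomal enzymes causes storage diseases, in several of which Purkinje cells die. The genes fall into V0 subunits (7), V1 subunits (9), accessory proteins (2), lysosomal membrane proteins (5), cathepsins and other peptidases (7), glycosidases with a sialidase (5), lipid hydrolases (3), sulfatases (2) and secreted precursors (2).

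The captured cells carried the defining transcripts of Purkinje cells, and also those of Bergmann glia, whose processes surround them. All 8 Purkinje markers read were detected in each pool, meaning at a TPM of 1 or more, and summed to 68015 in pool 1 and 69686 in pool 2. All 8 Bergmann glia and astrocyte markers were detected as well with sums of 2182 and 3885. Of 10 microglial markers, 1 reached that level in both pools (sums 5.53 and 3.91, with Aif1 at 0 in pool 2 and Fcrls at 0 in pool 1). The sums were 36.4 and 52.6 for oligodendrocytes, 28.7 and 37.0 for granule cells, 15.4 and 12.2 for endothelium, and 2453 and 16.3 for red blood cells. Fewer cells of a type and less RNA per cell cannot be told apart in such pools.

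Sequences in the promoters of these genes are shown first, because lysosomal genes are known as a group for a short promoter motif. The transcription factors TFEB, TFE3 and MITF bind a palindrome with the letters CACGTG at its centre, in many lysosomal and V-ATPase promoters. RefSeq promoter windows (GRCm38.p6, 250 bases before to 50 after the start) were given for 35 of the 42 genes and searched for CACGTG, which reads the same on both strands. It was present in 14 of the 35 (40.0%), in 8.09% of the 27025 genes of the table and in 12.6% of the genes of the table detected in at least 1 pool. The longer palindrome TCACGTGA, which contains CACGTG and also reads the same on both strands, was present in 7 of the 35 (20.0%), against 1.12% of all genes and 2.60% of detected genes. A match is a run of letters, not a bound site. The 30 bases around the longer palindrome are shown for these 7 genes, with both matches of Ctsa, 5′ to 3′ on the gene's own strand, with the motif in capitals.
Atp6v0d1, chr8:105566050-105566079, minus strand: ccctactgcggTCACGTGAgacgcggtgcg
Atp6v0e, chr17:26676387-26676416, plus strand: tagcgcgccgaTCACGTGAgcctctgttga
Atp6v1a, chr16:44139373-44139402, minus strand: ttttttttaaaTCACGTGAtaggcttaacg
Cln3, chr7:126583340-126583369, minus strand: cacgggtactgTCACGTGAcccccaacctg
Ctsa, chr2:164833749-164833778, plus strand: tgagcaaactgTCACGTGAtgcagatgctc
Ctsa, chr2:164833766-164833795, plus strand: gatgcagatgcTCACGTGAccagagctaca
Ctsd, chr7:142387908-142387937, minus strand: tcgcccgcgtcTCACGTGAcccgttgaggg
Mcoln1, chr8:3500462-3500491, plus strand: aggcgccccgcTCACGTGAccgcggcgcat

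The promoter of Lamp1, which encodes the most abundant glycoprotein of the lysosomal membrane, held CACGTG 4 times, the most of any of the 14 genes. All 4 lie in the 80 bases just before the RefSeq start, shown with the motifs in capitals.
Lamp1, chr8:13159081-13159160, plus strand: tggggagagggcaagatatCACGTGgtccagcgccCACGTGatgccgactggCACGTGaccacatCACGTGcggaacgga
The other 6 genes with the shorter motif were Arsa, Atp6v0b, Ctsf, Ctsl, Gaa and Glb1. By mean level the 14 genes ran from Arsa (TPM of 0.80 and 0.86) to Lamp1 (80.1 and 178.6), whose pools overlapped those of Atp6v0b (109.4 and 124.0). The regulators were low in these pools: Tfeb was at a TPM of 0.02 and 0.09 (1 and 5 counts), Tfe3 at 0.68 and 0.74, and Mitf at 0.64 and 0.12.

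V-ATPase transcripts were far more abundant than those of most lysosomal hydrolases. Of the 42 genes, 36 (85.7%) were detected in both pools: 17 of the 18 V-ATPase genes and 19 of the 24 others. Both pools were at 10 or more for 17 V-ATPase genes and for 6 of the 24 others, as for 24.6% of the 8958 genes detected in at least 1 pool. The 5 genes at 100 or more in both pools, all V-ATPase subunits, were Atp6v1f, Atp6v0c, Atp6v1g2, Atp6v1g1 and Atp6v0b. Most of the TPM of Atp6v0b fell on a transcript annotated as a retained intron. The median TPM was 56.5 in pool 1 and 63.4 in pool 2 for the V-ATPase genes, and 4.81 and 5.28 for the others. Over all detected genes it was 3.06 and 3.86. On the log2(TPM + 1) scale the median of the 42 genes was 4.38 ± 0.09 (SD, n = 2). In the order of mean levels, 12 of the 41 neighbouring pairs of genes had pools that did not overlap, so most neighbours could not be ordered.

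**Figure D1:**
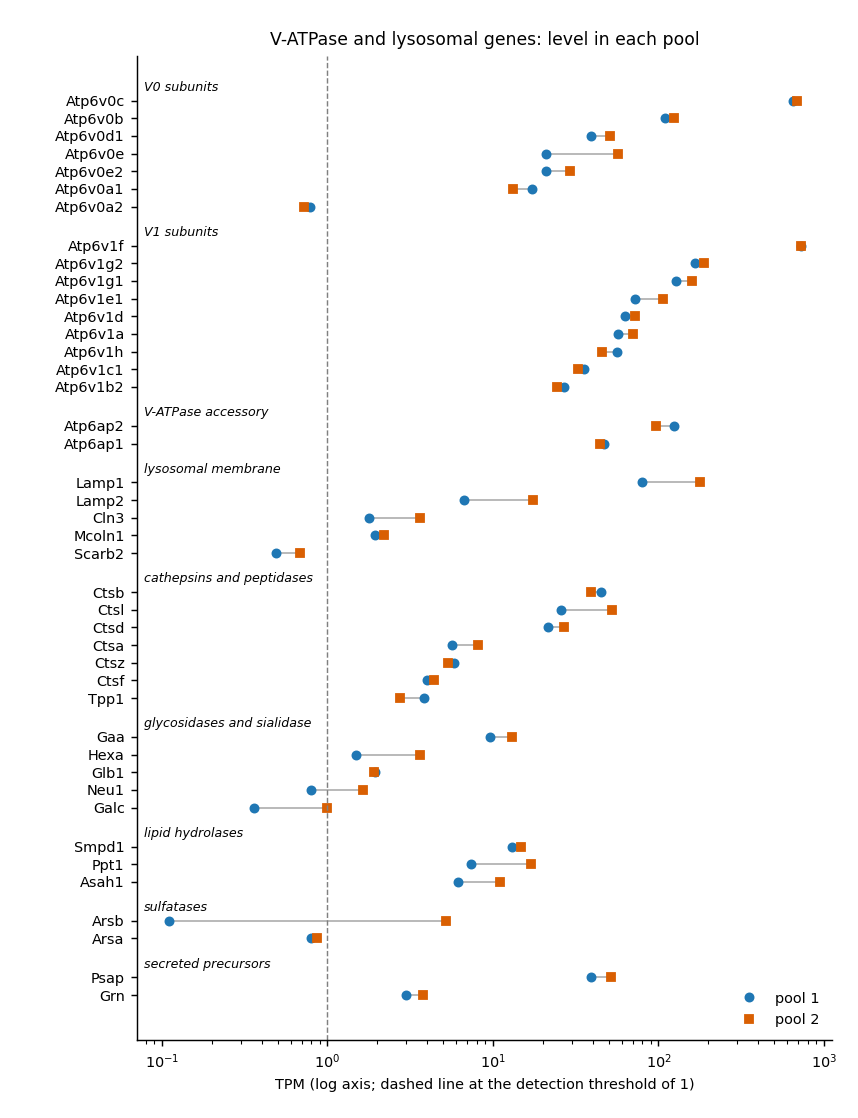
Level of each of the 42 genes in TPM (log axis) in pool 1 (circles) and pool 2 (squares), grouped by role and joined by a line. V-ATPase genes other than Atp6v0a2 sit above a TPM of 10, while most hydrolases sit below it, and Arsb has the widest gap, 0.11 against 5.21.

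Among the V0 subunits, the proteolipids of the ring stood highest by gene-level TPM. Atp6v0c (ENSMUSG00000024121.9, chr17:24163866-24169702, minus strand), the proteolipid that forms most of the proton-carrying ring, had TPM values of 650.0 and 687.0. Its processed copy Atp6v0c-ps2 shares a run of 354 bases with it but held only 264 and 276 counts, against 28619 and 26050 for Atp6v0c. Atp6v0b, the other proteolipid of the ring, was at 109.4 and 124.0, and Atp6v0d1, which couples the ring to the central stalk, at 39.4 and 51.2. The protein-coding transcripts of Atp6v0b came to only 38.7 and 36.0, below Atp6v0d1.

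The a subunit forms the proton path beside the ring and is made from several genes. Atp6v0a1, the form most used in neurons, was at a TPM of 17.2 and 13.1 (1113 and 1230 counts). Atp6v0a2, known for the Golgi and mutated in a skin laxity disorder, was at 0.78 and 0.72 (92 and 74 counts), the lowest V-ATPase gene of the set. By gene-level TPM, Atp6v0a1 was thus 22.0 and 18.2 times as high as Atp6v0a2 in the 2 pools, and the values of the pair did not overlap. The size of this ratio depends on the 373-base transcript Atp6v0a1-206, which held a TPM of 10.75 and 2.93 on 10.8% and 2.28% of the gene's counts. The longer Atp6v0a1-201 was at a TPM of 3.54 and 0.46, and Atp6v0a1-202 at 2.85 and 8.69. The coding sequences of the pair are 64.7% identical, with no shared run longer than 23 bases.

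The small e subunit showed no fixed order of its genes. Atp6v0e was at a TPM of 20.9 and 56.8, and Atp6v0e2 at 20.9 and 29.2, so Atp6v0e was 1.00 times as high in pool 1 and 1.95 times in pool 2. The pools of this pair overlapped.

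All 9 V1 subunits were at a TPM above 20 in both pools. Atp6v1f (ENSMUSG00000004285.8, chr6:29467718-29470512, plus strand), a small subunit of the central stalk, was the highest gene of the whole set at 723.5 and 723.1 (17165 and 14950 counts). The lowest was Atp6v1b2, which forms the catalytic head together with Atp6v1a, at 26.9 and 24.4. Atp6v1a, which carries the ATP-splitting site, was at 56.8 and 70.0. The peripheral stalk subunit Atp6v1e1 was at 72.2 and 107.2, the central stalk subunit Atp6v1d at 63.2 and 72.0, the regulatory subunit Atp6v1h at 56.2 and 45.5, and Atp6v1c1, which joins the sectors, at 35.7 and 32.6.

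Both genes of the g subunit of the peripheral stalk were abundant. Atp6v1g2, known as the neuronal form, was at a TPM of 165.9 and 188.7, and the widely expressed Atp6v1g1 at 128.5 and 159.2. Atp6v1g2 was 1.29 and 1.19 times as high, and the pools of the pair did not overlap. Their coding sequences are 66.5% identical, with no shared run longer than 11 bases. The accessory proteins were also high: Atp6ap2, also called the prorenin receptor, was at 123.7 and 96.1, and Atp6ap1 at 46.6 and 44.6.

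Apart from Tcirg1, the paralogs known from kidney, bone, epididymis or testis were nearly absent. Of 7 such genes, Atp6v0d2, Atp6v1b1, Atp6v1c2, Atp6v1e2 and Atp6v1g3 had 0 counts in both pools, which allows up to 3 counts in each, and Atp6v0a4 had 1 count in pool 1. Tcirg1, the a subunit known from osteoclasts, was detected in both pools at a TPM of 1.32 and 1.01 (46 and 24 counts). By TPM it was above Atp6v0a2 (0.78 and 0.72), although Atp6v0a2 had more counts (92 and 74). Of 10 genes for V-ATPase assembly and regulation, 9 were detected in both pools, led by Rnasek (229.5 and 147.2), Ncoa7 (32.2 and 57.3), Oxr1 (22.7 and 25.0) and Dmxl2 (8.42 and 6.84).

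Short transcripts led among the V-ATPase genes. Spearman's rho between effective length and mean TPM was -0.62 across the 18 V-ATPase genes, 0.17 across the 24 others and -0.31 across 8011 detected protein-coding genes. These are descriptions across genes, which share the libraries and are not independent replicates. TPM divides by the effective length, so a short gene gains more TPM per read.

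**Figure D2:**
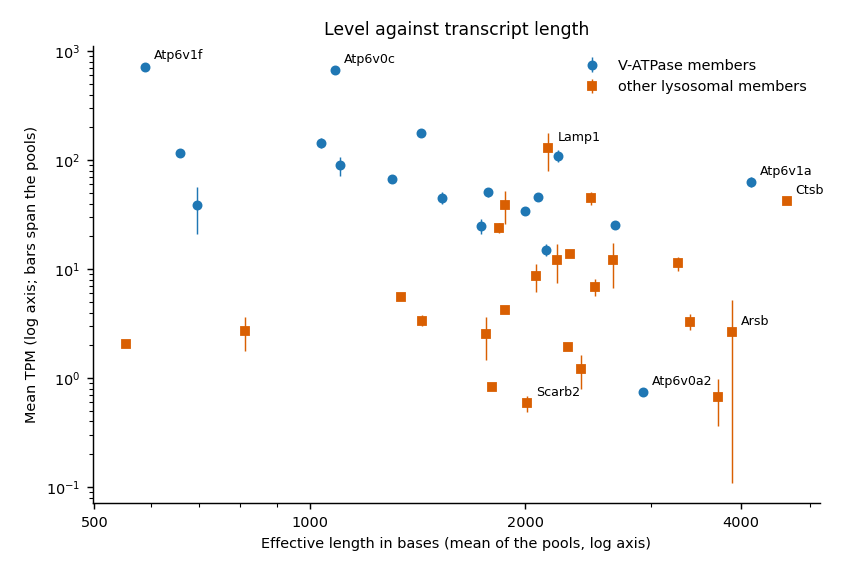
Mean TPM of each gene against its effective length in bases (both axes log), with bars that span the 2 pools. The V-ATPase genes (circles) run from Atp6v1f at the upper left down to Atp6v0a2, whereas the other lysosomal genes (squares) show no such slope.

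Lysosomal membrane proteins ranged widely in level. Lamp1 (ENSMUSG00000031447.6, chr8:13159161-13175338, plus strand) was at a TPM of 80.1 and 178.6, the highest gene outside the V-ATPase. Lamp2, its homologue that also serves chaperone-mediated autophagy, was at 6.71 and 17.6. Cln3, mutated in juvenile Batten disease, was at 1.79 and 3.61, and Mcoln1, the calcium-permeable channel TRPML1, at 1.95 and 2.18. The protein-coding transcripts of Cln3 came to 0.39 and 0.67, and those of Mcoln1 to 0.61 and 1.52. Scarb2, the carrier that brings glucocerebrosidase to lysosomes, was the lowest of the 42 genes at 0.49 and 0.68 (40 and 48 counts). Both pools were below the threshold for Scarb2.

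All 7 cathepsins and peptidases were detected in both pools. Ctsb, a cysteine protease, was highest at a TPM of 45.3 and 39.3. Ctsl, another cysteine protease, was at 25.8 and 52.6, and the aspartic protease Ctsd at 21.4 and 26.7. Ctsa, which protects sialidase and galactosidase in a complex, was at 5.62 and 8.14, Ctsz at 5.82 and 5.35, and Ctsf at 4.00 and 4.43. Tpp1, the tripeptidase lost in late infantile Batten disease, was lowest at 3.84 and 2.74.

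Enzymes that cut glycans were mostly near the threshold. Gaa, the glycogen-degrading glucosidase lost in Pompe disease, was highest of the 5 at 9.64 and 13.0. Hexa, whose loss causes Tay-Sachs disease, was at 1.48 and 3.63 and the galactosidase Glb1 at 1.93 and 1.92. Neu1, the sialidase, was at 0.80 and 1.64, and Galc, the galactosylceramidase lost in Krabbe disease, at 0.36 and 0.99. Galc thus missed the threshold in both pools, and Neu1 in pool 1 only.

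Lipid hydrolases were higher by gene-level TPM: Smpd1, the acid sphingomyelinase, was at a TPM of 13.0 and 14.8. Ppt1, the thioesterase lost in infantile Batten disease, was at 7.39 and 16.9, and Asah1, the acid ceramidase, at 6.15 and 11.0. The protein-coding transcripts of Asah1 came to only 0.48 and 0.96, below the threshold in both pools. The sulfatase Arsa, lost in metachromatic leukodystrophy, was at 0.80 and 0.86 (71 and 42 counts). Of the precursors that are secreted and then cut in lysosomes, Psap, the source of the saposins that help lipid hydrolases, was at 39.1 and 51.4. Grn, the source of granulins, was at 2.98 and 3.77.

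Other genes of the pathway were read for comparison. Of 29 further enzymes and their cofactors 12 were detected in both pools. The highest included Gm2a, a cofactor of hexosaminidase (40.2 and 72.7), Fuca1 (6.34 and 6.15) and Ctso (2.01 and 7.26). Of 18 further membrane proteins 9 were detected, led by Laptm4b (81.9 and 92.5), Cd63 (13.9 and 34.1), Laptm4a (4.96 and 10.5) and Ostm1 (6.14 and 7.98). Of 20 genes for regulation and enzyme sorting 14 were detected, led by Lamtor5 (132.3 and 142.6), Lamtor2 (84.6 and 63.6), Lamtor4 (44.2 and 29.6) and Rraga (25.3 and 17.1), which dock the kinase mTORC1 on lysosomes.

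The libraries differed in most of these genes, as they did across the transcriptome. Each gene was compared with a two-sided exact binomial test on rounded counts, scaled by the trimmed mean of M-values (TMM), with Benjamini-Hochberg adjustment over all 14495 genes tested. The test sets a library against a library, not a condition against a condition. At an adjusted p under 0.05, 31 of the 42 genes (73.8%) were called, against 65.8% of all genes tested, so the share was near the background. Of the 42 genes, 17 were called higher in pool 2, against 33.3% of all genes tested, and 14 higher in pool 1, against 32.5%. Among the calls over all genes tested, 50.7% were higher in pool 2. With the total counts as the scale the split was 24 and 9, and with the spike-ins it was 4 and 31. These scalings move the median log2 count ratio of all detected genes from 0.03 to 0.23 and to -0.74. The median of the 38 genes of the set detected in at least 1 pool differed from it by -0.0023 under each of them. The directions of whole lists in the next paragraph are therefore relative to a median over all genes. The ratios of single genes after that are on the TMM scale, unless another scale is named.

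Relative to that median, the median log2 count ratio of the 17 V-ATPase genes detected in at least 1 pool was -0.12, with 6 of them above it and 11 below. The 21 other lysosomal genes so detected had a median of 0.20, with 13 above and 8 below, and within them the 7 cathepsins and peptidases had -0.16, with 2 above and 5 below. Against the median ratio of all tested genes, 4 of the 18 V-ATPase genes were called above and 10 below, and 13 and 4 of the 24 others. Under the same rule 65.7% of all 14495 genes tested were called, with both directions counted together. The difference between these lists was not tested. The Purkinje markers had -0.34 (1 above, 7 below) and the Bergmann glia markers 0.75 (7 above, 1 below). The part of these marker differences in the result was not tested.

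**Figure D3:**
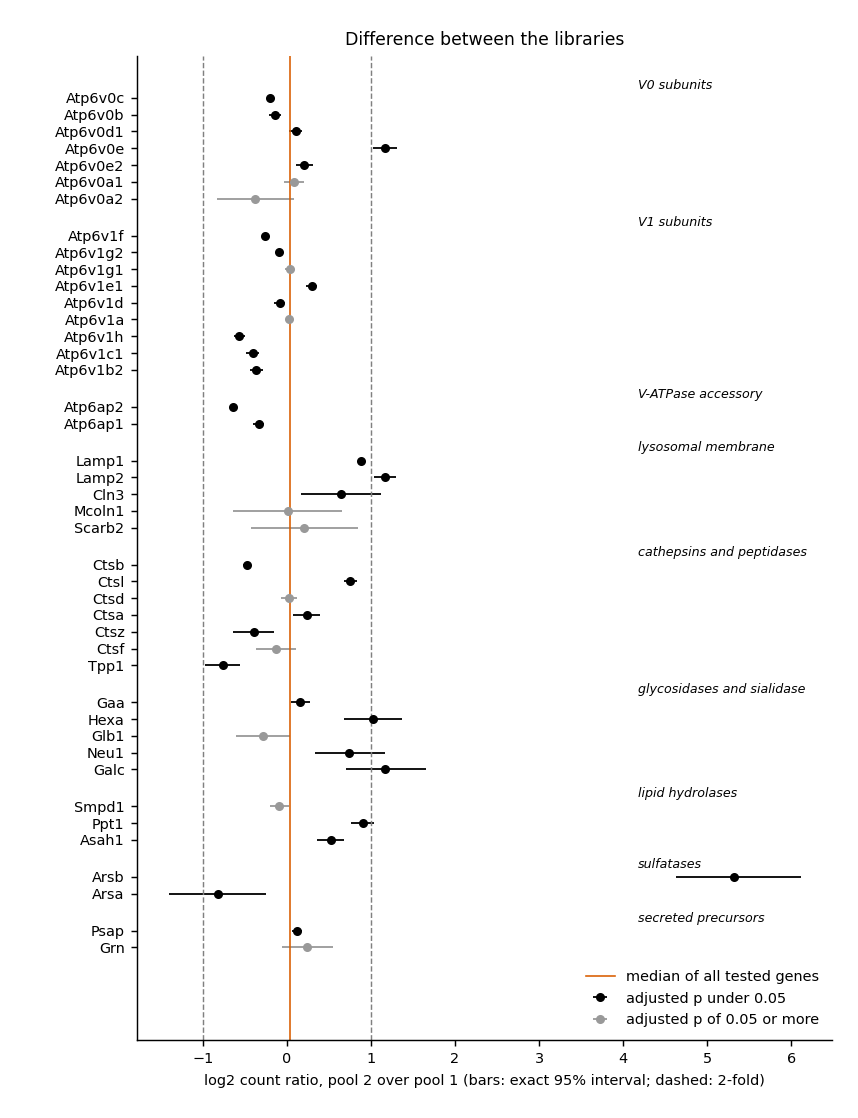
Log2 count ratio of pool 2 over pool 1 (TMM scale) for each gene, with exact 95% intervals that cover counting error only; black points passed the threshold, grey points did not. Most V-ATPase genes lie left of the median of all tested genes (solid line), and 5 genes lie beyond the 2-fold line on the right.

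A difference over 2-fold was called for 5 of the 42 genes (11.9%), against 29.4% of all genes tested and 17.7% of genes with at least 100 counts. All 5 were higher in pool 2: Arsb, Atp6v0e, Lamp2, Hexa and Galc. These 11.9% of the 42 genes stand against 15.3% of all genes tested that were called over 2-fold higher in pool 2. Another 14.1% of all genes tested were called over 2-fold higher in pool 1. Atp6v0e had 592 and 1383 counts, 2.24-fold higher in pool 2 (interval 2.04 to 2.47, exact binomial adjusted p = 2.46e-64). Lamp2 had 711 and 1660 counts, 2.24-fold higher (2.05 to 2.45, exact binomial adjusted p = 4.22e-77). Hexa had 106 and 224 counts (2.03-fold, 1.60 to 2.58) and Galc 55 and 129 (2.25-fold, 1.63 to 3.15), and on the spike-in scale neither of these passed. On that scale Atp6v0e kept its call at a log2 ratio of 0.39, which is under 2-fold. Lamp2, with a similar TMM ratio, was also under 2-fold there, since the scale shifts all genes by a constant.

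Among the genes that came close to 2-fold were Lamp1, Ctsl and Ppt1, higher in pool 2, and Tpp1 and Arsa, lower in pool 2. Lamp1 had 7011 and 13467 counts, 1.84-fold higher in pool 2 (interval 1.79 to 1.90), and Ctsl 1958 and 3445 counts, 1.69-fold higher (1.60 to 1.79), a difference that on the spike-in scale was -0.01 (log2) and did not pass. Ppt1 was 1.87-fold higher (1.70 to 2.05), but on the spike-in scale its log2 ratio of 0.13 did not pass, and that of Lamp1 fell to 0.11. Of the 8 Bergmann glia and astrocyte markers, 7 were called higher in pool 2 and 1, Hopx, higher in pool 1 (log2 ratio -0.07). Those higher in pool 2 included Slc1a3 (215386 and 325462 counts) and Gja1 (49000 and 88510 counts), by 0.54 and 0.79 on the log2 count scale. These marker ratios are on the TMM scale only, and a link to the genes above was not tested. Lower in pool 2 were Atp6ap2 (1.56-fold), Atp6v1h (1.48-fold), Ctsb (1.39-fold), Tpp1 (1.70-fold) and Arsa (1.76-fold), with the same direction under each scaling tried.

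Further genes of the pathway also crossed the 2-fold line. Among genes with at least 100 counts in total, those higher in pool 2 included Ctso (3.01-fold), Man2b1 (2.95-fold) and Cd63 (2.02-fold). Those higher in pool 1 included Gusb (88 and 13 counts), Manba (99 and 20) and the V-ATPase regulator Dmxl1 (747 and 386). Of the further enzymes, 18 of 28 tested were called (64.3%), 7 higher in pool 2 and 11 higher in pool 1, and of the further membrane proteins 8 of 17 (47.1%), 7 and 1, against 65.8% of all genes tested (33.3% and 32.5% by direction).

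The largest ratio of the set, that of Arsb, cannot be read as a change in that gene alone. Arsb (ENSMUSG00000042082.6, chr13:93771630-93943016, plus strand), the sulfatase lost in mucopolysaccharidosis type VI, had 17.0 and 708 expected counts. Its last exon, mostly 3′ UTR, overlaps Gm26527, a gene of the opposite strand at chr13:93940990-93943015, which had 547 and 96.7 expected counts. The deposited posterior SD of the count was the same for both genes, 8.03 in pool 1 and 103 in pool 2. Use of the read strand in counting was not stated by the labels or headers. The summed counts of the pair were 564 and 805, 1.37-fold higher in pool 2 (interval 1.23 to 1.53). In all, 17 of the 42 genes share exon bases with a gene of the opposite strand, and 7 had a posterior SD above 0.

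The deposited transcript tables divide each gene's reads among its annotated transcripts. Of the 42 genes, 24 have at least 2 annotated transcripts. Among the 22 of these detected in both pools, the transcript with the highest TPM was the same in 18 (81.8%, exact binomial 95% interval 59.7 to 94.8), against 86.9% of 5149 genes measured the same way. It changed in Atp6v0a1, Cln3, Grn and Mcoln1. By expected counts instead of TPM it was the same in 20 of 22 (90.9%), against 88.1% of the 5149 genes. The coding exons that set apart the main transcripts of 3 genes are shown in capitals, with 15 bases of the neighbouring exons in lower case (GENCODE M21, mm10).
Atp6v0a1-201, chr11:101049459-101049476, plus strand: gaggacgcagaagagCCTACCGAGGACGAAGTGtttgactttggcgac
Atp6v1h-201, chr1:5101070-5101123, plus strand: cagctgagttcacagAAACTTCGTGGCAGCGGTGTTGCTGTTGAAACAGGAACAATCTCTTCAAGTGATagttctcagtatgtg
Psap-205, chr10:60297537-60297545, plus strand: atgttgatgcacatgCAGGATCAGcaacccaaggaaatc

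The 18-base exon of Atp6v0a1 is in transcript Atp6v0a1-201 and absent from Atp6v0a1-202. Atp6v0a1-201 held 563 counts in pool 1 and 62.5 in pool 2, and Atp6v0a1-202 held 431 and 1128. The first of these transcripts therefore took 56.7% of the pair's counts in pool 1 (exact binomial 95% interval 53.5 to 59.7) and 5.25% in pool 2 (4.02 to 6.63). The counts of the whole gene, 1113 and 1230, did not pass (adjusted p = 0.201 in the exact binomial test). The short transcript Atp6v0a1-206 had only 10.8% of the counts in pool 1 but 62.7% of the TPM there. Such intervals leave out the error of assigning reads to transcripts.

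The transcripts with the 54-base exon of Atp6v1h and the 9-base exon of Psap took closer shares in the pools. Atp6v1h-201, with its exon, took 21.5% (20.2 to 22.8) and 26.4% (24.8 to 28.1) of the counts it shares with Atp6v1h-204. Psap-205 took 7.09% (6.31 to 7.94) and 4.80% (4.19 to 5.47) of those it shares with Psap-203. In each of these 3 genes the paired transcripts also differ in exons at their ends, so the share is of transcripts, not of exon use alone. Pairs were formed from the 2 protein-coding transcripts with the most counts, in genes at a TPM of 10 or more whose lesser transcript had at least 50 counts in each pool, a rule set after the values were seen. It gave 6 pairs, and the same rule was not applied to other genes. The other 3 were Atp6ap1 (19.7% and 8.78% on Atp6ap1-202), Atp6v1f (9.77% and 6.20% on Atp6v1f-202) and Ctsd (29.2% and 18.5% on Ctsd-202).

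**Figure D4:**
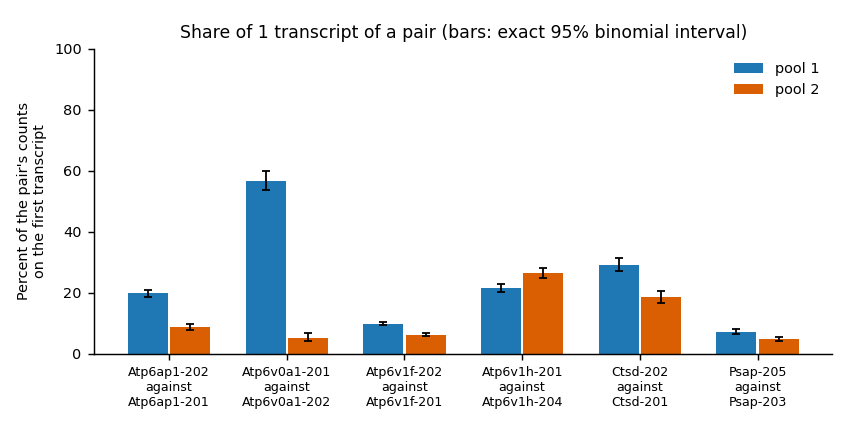
Percent of the counts of a transcript pair that fell on its first-named transcript, in pool 1 (left bar) and pool 2 (right bar), with exact 95% binomial intervals. Atp6v0a1-201 has the widest gap, 56.7% against 5.25%, and the other 5 pairs differ by less.

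Lamp2 is made with 3 alternative last exons, which encode different membrane anchors and tails. Their coding parts are shown in capitals after the last 15 bases of the shared exon, since the tail sets the known roles of the forms.
Lamp2-201, chrX:38405435-38405571, minus strand: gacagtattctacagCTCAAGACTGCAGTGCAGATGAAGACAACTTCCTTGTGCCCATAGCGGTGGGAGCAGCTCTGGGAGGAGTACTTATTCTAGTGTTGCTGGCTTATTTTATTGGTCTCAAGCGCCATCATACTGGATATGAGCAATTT
Lamp2-202, chrX:38421715-38421851, minus strand: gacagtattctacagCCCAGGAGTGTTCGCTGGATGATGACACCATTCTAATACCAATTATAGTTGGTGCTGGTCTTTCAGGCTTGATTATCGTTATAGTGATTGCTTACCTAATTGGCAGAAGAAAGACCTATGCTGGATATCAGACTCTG
Lamp2-203, chrX:38402142-38402281, minus strand: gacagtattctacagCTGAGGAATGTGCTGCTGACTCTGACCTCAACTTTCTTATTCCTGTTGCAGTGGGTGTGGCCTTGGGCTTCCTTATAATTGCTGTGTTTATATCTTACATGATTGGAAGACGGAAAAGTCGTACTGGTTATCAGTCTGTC
Lamp2-202 took 44.5% and 50.1% of the gene's TPM in pools 1 and 2, Lamp2-201 30.6% and 27.5%, and Lamp2-203 21.9% and 18.7%. The order of the forms was the same in both pools, although the gene itself was 2.24-fold higher in pool 2.

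For 4 genes, less than 50% of TPM fell on protein-coding transcripts in both pools, so most of their gene-level TPM came from transcripts annotated as other classes. Asah1 had 92.2% and 87.0% on Asah1-203, annotated as a retained intron. Atp6v0b had 64.1% and 69.9% on Atp6v0b-204, of the same class, so its protein-coding transcripts came to a TPM of 38.7 and 36.0. For Cln3 the protein-coding share was 21.8% and 18.6%, and for Arsa 12.5% and 0%. In 36 of the 42 genes the protein-coding share was at least 90% in both pools.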

How the data were processed

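RNA-seq tables of 2 Purkinje cell pools were used. The authors quantified reads against mm10 with GENCODE annotation M4, per a text file in each deposit. Neither aligner nor quantifier was named in the sources used here. The deposited tables hold, per the file headers, expected counts (estimated reads), TPM, FPKM, posterior mean values, posterior SDs of the count and, by transcript, its percent of the gene. In the deposited tables TPM sums to 1000000 per library. Symbols, transcript classes and exons were taken from GENCODE M21 (also mm10), and promoters from RefSeq (GRCm38.p6).

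Expected counts were rounded, and genes with at least 10 counts in total were compared between the libraries by a two-sided exact binomial test at TMM-scaled totals (edgeR 4.0.16), Benjamini-Hochberg adjusted at 0.05. The test was checked on simulated counts drawn with counting error only, so the check does not cover variation between pools. Rows that name no gene held 0.000412% and 0.000194% of counts and, like the spike-ins (0.211% and 0.411%), were left out. With 1 group there was no contrast. No molecular identifiers are mentioned by the labels, so intervals cover counting error only. The biological coefficient of variation between the pools was 0.371, which that test leaves out, so its p-values are small for counting reasons alone. Log2 levels used a pseudocount of 1. Other scalings (DESeq2 1.42.0 size factors, total counts, spike-in totals), filters, pseudocounts and units were tried.

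The genes and lists were chosen with earlier results of these data known. Any gene of the set could be named. Full values were given for the highest and lowest of each role, the paralog pairs, genes under a TPM of 1, and calls over 2-fold. Of the pathway lists the 4 highest were named and each call over 2-fold with at least 100 counts, apart from a few genes that are not reported here.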

Additional observations from a re-analysis of the deposited data

How the results depend on the processing

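No paired analysis was possible because the pools form a single group. With total counts as the scale, 9 genes were called higher in pool 1 and the median log2 count ratio of the 38 detected genes was 0.23, while Atp6v1d (0.11), Atp6v0c (0.00121), Atp6v1g2 (0.11) and Atp6v0b (0.0566) changed sign. With spike-in totals, 4 genes were called higher in pool 2, 31 higher in pool 1 and 13 over 2-fold, and the median was -0.74. On that scale the log2 ratio changed sign for Psap (-0.65), Neu1 (-0.0274), Atp6v0d1 (-0.67), Ctsa (-0.53), Atp6v1e1 (-0.48), Ctsl (-0.0143), Gaa (-0.61), Cln3 (-0.13), Asah1 (-0.25) and Atp6v0e2 (-0.56). These scalings differ from TMM by a constant for all genes, which by construction sets these changes. FPKM gave a median log2 level of 4.69 in place of 4.38. Leaving out replicate 1 or 2 gave 36 to 38 detected genes and a median level of 4.32 to 4.44. Summing Arsb with Gm26527 lowered its log2 ratio from 5.32 to 0.45, and ratios relative to the median of all tested genes gave the same 31 calls in number; both alternatives were chosen after seeing the data. A call was lost, with its sign kept, for Ctsz with total counts, for Atp6v1d with no filter on low counts, and for Galc, Hexa and Ppt1 with spike-in totals. The number of genes called stayed between 30 and 35 under every scaling, filter and count estimate tried. The order within the paralog pairs kept its direction with FPKM and with posterior mean TPM. Depth limits Scarb2, Mcoln1, Arsa and Cln3, which had 160 counts or fewer in total. With n = 2, no SD here is precise.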
